A study of Mus musculus with 12 samples.

Results

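Transcript levels were compared between Adcy10-/- and wild-type (WT) CD4+ T cells that were cultured in baseline medium. The 6 libraries labelled as baseline medium, 3 per genotype, were taken by their labels from the 12 of the series. The other 6 libraries came from the same 2 genotypes in baseline medium with added polarizing cytokines, and were used to estimate the spread and to set values side by side. All cells came from male C57BL/6 mice 8 to 10 weeks old, from spleen or lymph node, by magnetic removal of other cell types. The labels describe a single culture of 18 h for all libraries, on anti-CD3 at 10 µg/mL with anti-CD28 at 2 µg/mL. The cytokines named are IL-6 at 25 ng/mL and both IL-1β and IL-23 at 20 ng/mL, and antibodies that block IFNγ and IL-4 were present at 1 µg/mL. They do not say which of these the baseline medium held. Nor do they say how the Adcy10 allele was made, whether animals were pooled, or whether the replicates were separate animals, so p-values measure only the spread between these libraries.

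The product of Adcy10 is soluble adenylyl cyclase, which bicarbonate and calcium stimulate directly and which makes the second messenger cyclic AMP (cAMP). The other mammalian adenylyl cyclases sit in membranes and answer to G protein-coupled receptors. In T cells cAMP acts mainly through protein kinase A, which phosphorylates the transcription factor CREB, and phosphodiesterases end the signal by degrading cAMP. Th17 cells are the CD4+ T cells that make IL-17A, IL-17F and IL-22. The comparison asks which transcripts differ between the genotypes without added polarizing cytokines.

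CREB binds the cAMP response element, whose full palindrome is TGACGTCA. In the RefSeq promoters of mouse build GRCm38.p6 (250 bases before to 50 bases after the start of a transcript), this palindrome occurred in 588 of 32851 promoters, or 1.79%. Among 42 promoters matched for 28 genes of a list of 40 cAMP-CREB target genes it occurred in 2, those of Areg and Dusp1. Both windows are shown because they hold the whole element on which CREB acts. They are written 5′ to 3′ on the gene's strand, with the palindrome in capitals, and lie at chr5:91139492-91139591 (plus strand, 100 bases) and chr17:26508562-26508661 (minus strand, 100 bases).
Areg: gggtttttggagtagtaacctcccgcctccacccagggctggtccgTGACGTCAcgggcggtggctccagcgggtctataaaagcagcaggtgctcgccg
Dusp1: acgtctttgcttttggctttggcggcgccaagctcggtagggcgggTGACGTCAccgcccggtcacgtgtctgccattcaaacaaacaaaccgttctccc
The shorter element TGACG, searched on both strands and contained in the palindrome, occurred in 20.8% of all promoters and in 52.4% of the 42. Among promoters of tested genes the palindrome occurred in 3.39% and TGACG in 33.3%, and among the 31 promoters of tested targets they occurred in 1 (3.23%) and in 58.1%. TGACG was thus more frequent in promoters of tested targets than in those of all tested genes. With the palindrome in 1 of 31 promoters, its frequency there cannot be compared. These are letter matches, not measured binding.

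Areg, the epidermal growth factor family ligand amphiregulin, lay between 0.182 and 0.615 FPKM (fragments scaled to library size and transcript length) in the 6 libraries and was too low to test. Dusp1, a phosphatase that inactivates MAP kinases, was at 14.8, 13.4 and 10.6 FPKM in WT replicates 1, 2 and 3, and at 15.9, 13.4 and 13.9 FPKM in Adcy10-/- replicates 1, 2 and 3. The Dusp1 ranges overlapped, and its difference was 0.15 on the log2(FPKM + 1) scale (95% interval -0.14 to 0.45).

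Of 16728 genes above 0 in any library, 9892 reached 1 FPKM in at least 3 of the 6 baseline libraries and were tested. Limma called none of them at an adjusted p of 0.05, a background of 0.0%, and the smallest adjusted p was 1.00. At an unadjusted p under 0.05 there were 108 genes (1.09%), of which 65 had the higher mean in Adcy10-/- cells and 43 the lower. Without WT baseline replicate 1 this count was 234, again with no call. With the replicate number as a block, limma again called none, the smallest adjusted p being 0.170 (for Mid1), and 352 genes (3.56%) lay under the unadjusted 0.05. The ranges of the 2 genotypes did not overlap for 482 genes (4.87%), 254 with Adcy10-/- higher (2.57%) and 228 with Adcy10-/- lower (2.3%).

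The libraries bounded most differences closely. The 95% interval of the difference on the log2(FPKM + 1) scale had a median half-width of 0.19. It lay inside 2-fold either way for 9761 genes (98.7%) and inside 1.5-fold for 9458 (95.6%). The middle 90% of differences ran from -0.12 to 0.12, with a median of 0.00. A difference of 1 or more on this scale, either way, was seen for 11 genes, of which 8 were small nucleolar or micro RNAs that were at 0 in some libraries or varied several-fold within a genotype. The other 3 were the chemokine gene Ccl17 (-1.13), the translation factor gene Eif3j1 (1.39) and the histone gene Hist1h4m (1.44). None of the 3 passed the test. Their intervals were -2.27 to 0.0015, -0.70 to 3.48 and 0.46 to 2.43. With the replicate block the intervals were -2.10 to -0.17, -0.66 to 3.44 and 0.63 to 2.26, again with no call. The scale shrinks differences of low genes: the ratio of mean FPKM was 2 or more for 28 genes, 11 higher and 17 lower in Adcy10-/- cells. Eif3j1 ran from 0.0661 to 28.7 FPKM within WT, and it and Hist1h4m have near-identical copies with which reads can be shared. Hist1h4m was at 1.77, 1.48 and 6.6e-05 FPKM in WT and at 3.53, 4.30 and 4.74 FPKM in Adcy10-/- cells, so its ranges did not overlap.

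**Figure D1:**
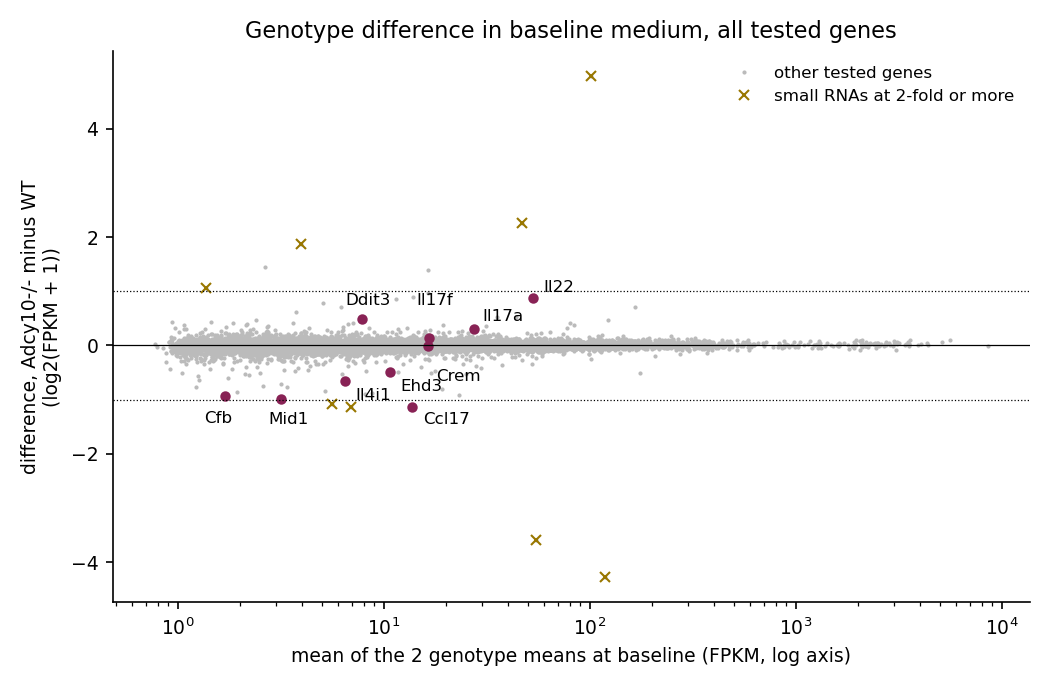
Difference between genotypes (Adcy10-/- minus WT, log2(FPKM + 1)) against mean FPKM on a log axis, 1 point per tested gene (9892), with dotted lines at 2-fold on the log2(FPKM + 1) scale, crosses for the 8 small RNAs past them and purple points for genes named in the text. The middle 90% of genes lie between -0.12 and 0.12.

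The first axis of variation followed replicate number 1 in both genotypes. In a principal component analysis of log2(FPKM + 1) of the tested genes in the 6 libraries, the first component (50.3% of the variance) placed replicate 1 of WT at 15.8 and replicate 1 of Adcy10-/- at 16.2, and the other 4 libraries between -13.1 and -4.03. Across genes, WT replicate 1 correlated at 0.994 with Adcy10-/- replicate 1, against 0.989 and 0.986 with the other WT replicates. Markers moved with this number too. Summed FPKM of 15 B cell markers was 107 and 93.6 in WT and Adcy10-/- replicate 1 and between 215 and 330 in the other 4 libraries. Summed FPKM of 17 CD4 T cell identity genes was 3869 and 3878 in replicate 1 and between 3304 and 3527 elsewhere. The part of cell composition in the spread was not tested, and in bulk RNA fewer cells of a type and less RNA per cell cannot be told apart.

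Adcy10 was listed at 0 FPKM in 12 of 12 libraries, WT included, so its transcript does not check the genotype labels. The membrane cyclases were represented by Adcy3, Adcy6 and Adcy7, the 3 of 10 adenylyl cyclase genes that passed the expression filter. Adcy7, a form that is prominent in blood cells, was the highest of the 3, at 11.4, 9.75 and 8.69 FPKM in WT and 11.1, 8.65 and 10.3 FPKM in Adcy10-/- cells (difference in log2(FPKM + 1) 0.01, interval -0.24 to 0.26). The intervals of Adcy3 (-0.30 to 0.17) and Adcy6 (-0.32 to 0.27) were also within 1.5-fold.

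Genes of protein kinase A and the CREB factors were bounded as narrowly. All 17 tested members (of 21) had intervals within 1.5-fold, 9 of them with a difference above 0 and 8 below. Prkar1a, a regulatory subunit that holds the kinase inactive until cAMP binds, was at 120, 111 and 112 FPKM in WT and at 117, 115 and 113 FPKM in Adcy10-/- cells. Creb1, the gene for CREB, was at 7.42, 7.77 and 7.35 FPKM in WT and 7.49, 6.79 and 6.99 FPKM in Adcy10-/- cells (-0.07, interval -0.22 to 0.07).

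The 8 tested phosphodiesterase genes also had intervals within 1.5-fold on the log2(FPKM + 1) scale, with 2 differences above 0 and 6 below. For low genes such as Pde8a this scale understates the fold in FPKM. Pde8a, which encodes a high-affinity cAMP phosphodiesterase, stood lowest at -0.25 (interval -0.54 to 0.03, or -0.50 to -0.01 with the replicate block). It was not called with or without the block. It was at 3.54, 3.55 and 3.09 FPKM in WT and 2.65, 2.28 and 3.16 FPKM in Adcy10-/- cells, with overlapping ranges. Pde4b and Pde4d, of a main cAMP-degrading family of T cells, differed by 0.06 and -0.03. Of a list of 20 other cAMP effectors, receptors, arrestins and G proteins, 15 were tested and none was called. Ptger4, the prostaglandin E2 receptor EP4, was at 13.5, 13.1 and 10.9 FPKM in WT and 13.8, 11.7 and 14.3 FPKM in Adcy10-/- cells. Gnai3, an inhibitory G protein subunit, differed by -0.08 (interval -0.20 to 0.04). Of 20 genes for carbonic anhydrases and bicarbonate transporters, which set the bicarbonate that stimulates the enzyme, 7 were tested and none was called, Car2 being at -0.23 (interval -0.61 to 0.15).

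Targets of CREB showed no call. Of the 40 on the list 33 were tested, 20 with a difference above 0 and 13 below, with a median of 0.01 beside 0.00 for all tested genes. No member had ranges that separated the genotypes, against 4.87% of all genes, and 30 of the 33 had intervals within 1.5-fold. Crem, which encodes a CREB family repressor that cAMP induces, was at 15.5, 16.3 and 17.4 FPKM in WT and 14.4, 17.4 and 17.4 FPKM in Adcy10-/- cells. Nr4a1, an orphan nuclear receptor gene induced within minutes of T cell receptor signalling, was at 135, 157 and 135 FPKM in WT and 126, 139 and 152 FPKM in Adcy10-/- cells. Fosb, an AP-1 subunit gene, had the smallest p of the list, at 2.44, 2.74 and 1.61 FPKM in WT and 4.10, 2.63 and 2.64 FPKM in Adcy10-/- cells (0.34, interval -0.07 to 0.75). Its ranges overlapped.

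**Figure D2:**
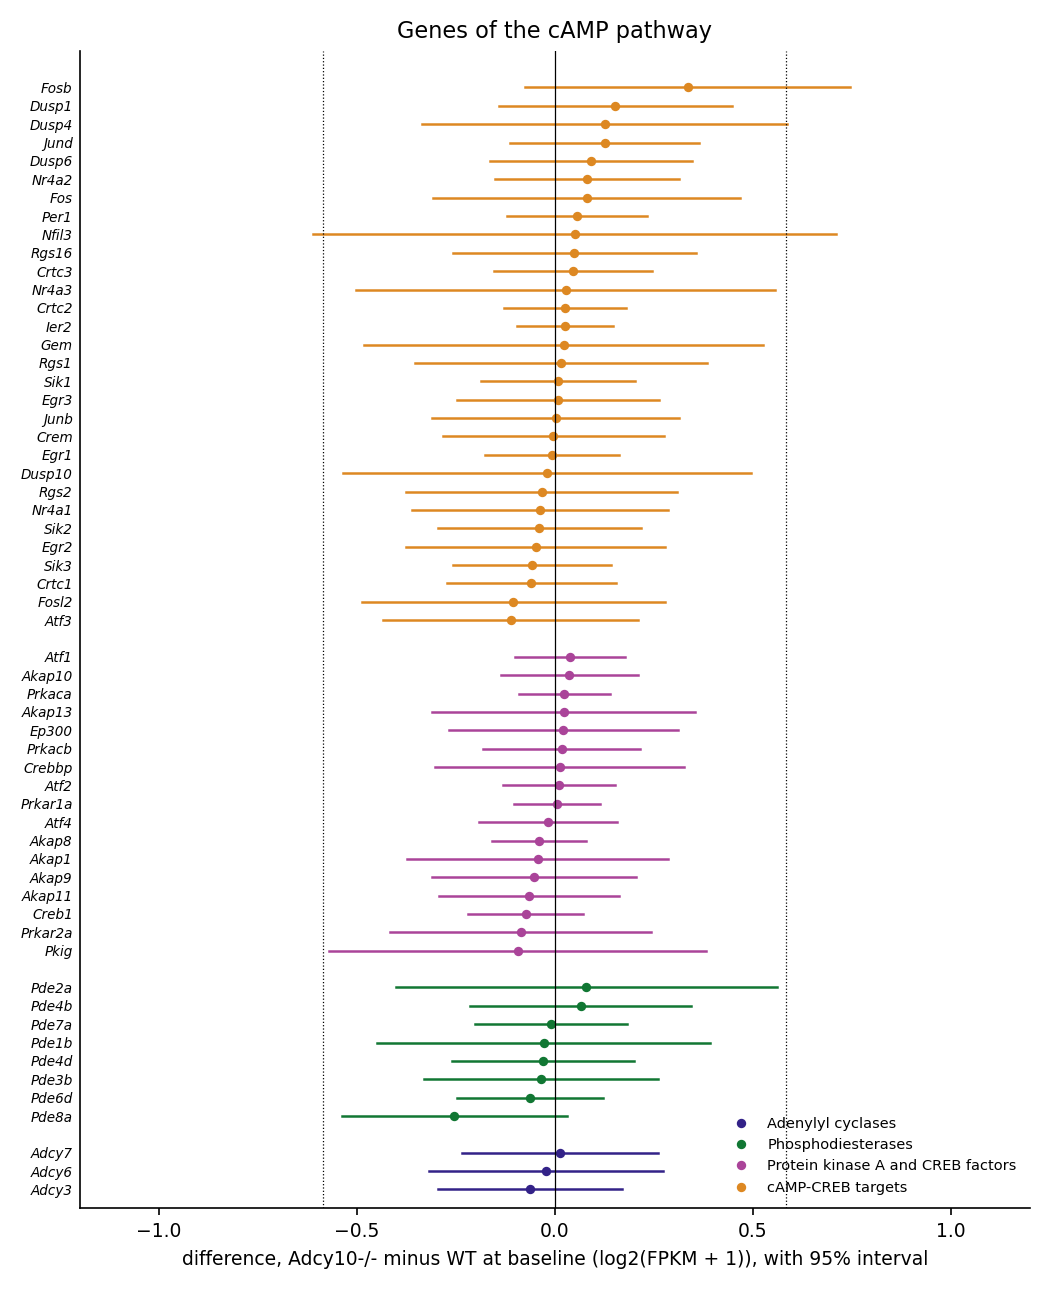
Difference between genotypes at baseline (log2(FPKM + 1)) for the tested genes of 4 cAMP groups, with 95% intervals from limma as bars and dotted lines at 1.5-fold either way. Genes on both lists are drawn once, with the phosphodiesterases. The bars are from the fit without the replicate block, and every bar crosses 0. With the block the intervals of Pde8a and Fosb do not cross 0.

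The Th17 cytokine genes varied widely between libraries of the same genotype. Il17a was at 16.6, 11.03 and 46.5 FPKM in WT and 11.6, 26.5 and 52.7 FPKM in Adcy10-/- cells. Replicate 3 was the highest library of each genotype, and the ranges overlapped almost wholly. The Il17a difference was 0.30 (SE 0.59, interval -1.003 to 1.60). Il17f was at 10.3, 3.20 and 34.0 FPKM in WT and 2.39, 21.4 and 27.9 FPKM in Adcy10-/- cells (0.13, interval -1.67 to 1.94). Il22, a cytokine that acts on epithelial cells, was at 21.2, 20.3 and 62.6 FPKM in WT and 18.4, 82.3 and 113 FPKM in Adcy10-/- cells. Its difference of 0.87 was not beyond its spread (interval -0.43 to 2.17), and 1 Adcy10-/- library lay under all 3 WT libraries. Il21, which Th17 and follicular helper cells make, was at 2.58, 4.40 and 13.4 FPKM in WT and 1.84, 9.98 and 6.11 FPKM in Adcy10-/- cells (-0.11, interval -1.19 to 0.97).

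The intervals of Il17a, Il17f and Il22 thus reached past 2-fold. With the replicate block they were -0.54 to 1.14, -1.41 to 1.67 and -0.20 to 1.94, and none of the 3 genes was called. Of 12 tested Th17 cytokine genes, 10 had a difference above 0 (median 0.13, or 0.28 without replicate 1 of every group), none had ranges that separated the genotypes, and 7 had an interval within 2-fold. Csf2, the gene for GM-CSF, was bounded more narrowly, at 3.98, 3.41 and 3.51 FPKM in WT and 2.96, 4.75 and 4.55 FPKM in Adcy10-/- cells (0.12, interval -0.30 to 0.54). Il10, an anti-inflammatory cytokine gene with the smallest p of the list, was at 2.31, 1.49 and 2.55 FPKM in WT and 2.42, 2.81 and 2.79 FPKM in Adcy10-/- cells (0.25, interval -0.09 to 0.59). Il2, the growth factor gene of activated T cells, differed by -0.25 (interval -0.85 to 0.36, or -0.58 to 0.09 with the replicate block).

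Factor and receptor genes of Th17 cells were not called. The receptor genes Il23r (0.290 to 0.457 FPKM) and Il1r1 (0.111 to 0.583 FPKM), through which IL-23 and IL-1β act, stayed under 1 FPKM in all 6 libraries and were not tested. Of 21 tested Th17 factor and receptor genes, 9 had a difference above 0 and 12 below, and 19 had intervals within 1.5-fold. The ranges did not overlap for 1 of the 21 (4.76%, about the 4.87% of all genes). That gene was Tgfbr1, a receptor chain for TGF-β, at 4.11, 4.40 and 4.29 FPKM in WT and 3.45, 3.78 and 3.94 FPKM in Adcy10-/- cells (-0.16, interval -0.38 to 0.06).

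Genes of the other helper lineages were not called either. Ifng, the Th1 cytokine gene, was at 24.0, 113 and 75.02 FPKM in WT and 33.1, 122 and 77.7 FPKM in Adcy10-/- cells. Its level followed the replicate number more than the genotype (0.21, interval -1.09 to 1.499, or -0.21 to 0.62 with the replicate block). Tbx21, which encodes the Th1 factor T-bet, had the same pattern, at 9.35, 28.0 and 30.9 FPKM in WT and 14.5, 31.9 and 27.0 FPKM in Adcy10-/- cells. The Tbx21 interval was -0.72 to 1.11, or -0.16 to 0.54 with the replicate block. Eomes, a related T-box factor gene, differed by 0.11. Il4, the Th2 cytokine gene, was at 18.0, 9.31 and 14.5 FPKM in WT and 9.92, 10.2 and 7.89 FPKM in Adcy10-/- cells (-0.50, interval -1.02 to 0.03). Its interval with the replicate block was -0.95 to -0.04, again with no call. Gata3, the Th2 factor gene, differed by -0.02 (interval -0.30 to 0.26).

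No regulatory T cell gene was called. Of 15 tested, 12 had a difference above 0, with a median of 0.07, or 0.16 without replicate 1 of every group. The ranges did not overlap for 1 of the 15 (6.67%, against 4.87% of all genes). That gene was Tigit, an inhibitory receptor gene, at 19.2, 17.7 and 19.6 FPKM in WT and 21.3, 22.7 and 23.3 FPKM in Adcy10-/- cells (0.24, interval 0.06 to 0.43). Foxp3, the defining factor gene of the lineage, was at 13.3, 12.2 and 17.5 FPKM in WT and 15.2, 18.0 and 18.7 FPKM in Adcy10-/- cells. Foxp3 was higher in Adcy10-/- cells at each of the 3 replicate numbers, though the ranges overlapped (0.27, interval -0.03 to 0.56). With the replicate block the Foxp3 interval was 0.08 to 0.45, again with no call. None of the 24 tested T cell activation genes or the 26 of T cell receptor signalling was called, and all 24 and 25 of the 26 had intervals within 1.5-fold.

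**Figure D3:**
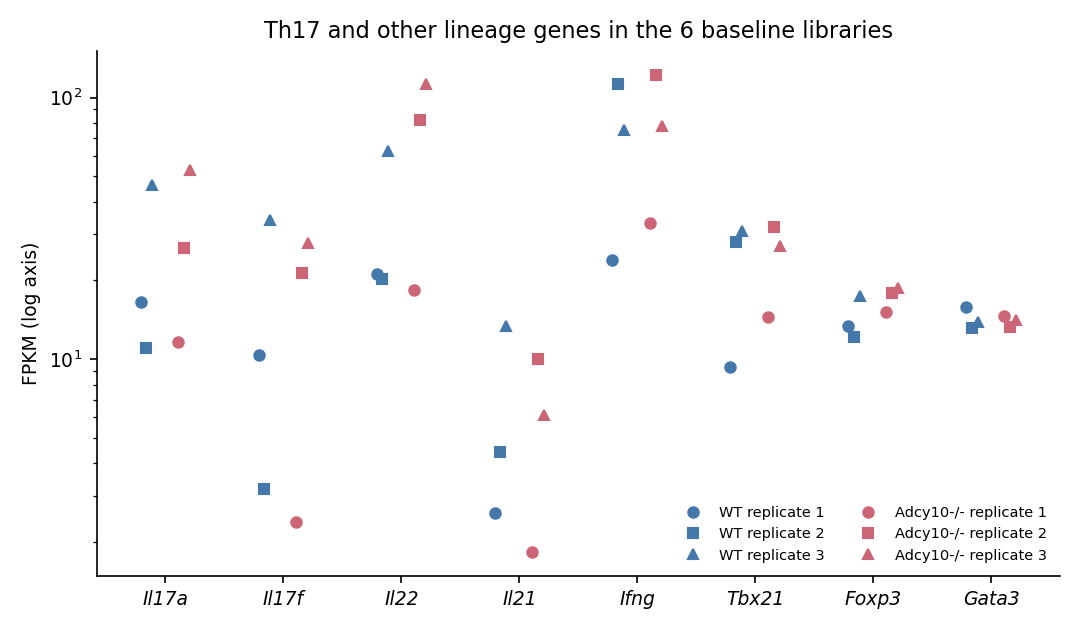
FPKM on a log axis of 8 lineage genes in the 6 baseline libraries, blue for WT and red for Adcy10-/-, with a marker shape for each replicate number. The ranges of the 2 genotypes overlap for all 8 genes, and Ifng and Tbx21 are lowest in replicate 1 of both genotypes.

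The smallest p-values belonged to genes outside these pathways. Mid1, an X-linked gene for a microtubule-associated ubiquitin ligase, was at 4.77, 4.71 and 3.95 FPKM in WT and 2.82, 1.08 and 1.58 FPKM in Adcy10-/- cells. All 3 Adcy10-/- libraries lay below all 3 WT libraries (-0.996, SE 0.21, interval -1.45 to -0.54). With cytokines Mid1 was at 4.13, 2.97 and 3.00 FPKM in WT and 1.66, 0.800 and 1.31 FPKM in Adcy10-/- cells (-0.96). Its level was under 5 FPKM, and its limma adjusted p was 1.00, or 0.170 with the replicate block. Mid1 and Ehd3 were on the panel because earlier results of these data were known, so their separation is no independent evidence.

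Ehd3, whose product shapes endosomal membranes, was at 15.8, 11.6 and 10.6 FPKM in WT and 10.4, 7.05 and 8.56 FPKM in Adcy10-/- cells (-0.50, interval -0.82 to -0.18). With cytokines it was at 11.03, 9.91 and 9.74 FPKM in WT and 7.10, 5.84 and 6.36 FPKM in Adcy10-/- cells (-0.60). The ranges separated the genotypes in both media. Spast, the gene for the microtubule-severing protein spastin, lies near Ehd3 on chromosome 17. It was at 7.28, 7.17 and 7.57 FPKM in WT and 6.37, 6.03 and 5.98 FPKM in Adcy10-/- cells (-0.23, interval -0.35 to -0.11), and differed by -0.22 with cytokines. The 3 tested genes between Ehd3 and Spast, Xdh, Memo1 and Dpy30, differed by 0.18, -0.10 and -0.02, and none had an unadjusted p under 0.05. Memo1 also had ranges that did not overlap at baseline, at 56.0, 55.7 and 59.2 FPKM in WT and 53.1, 52.2 and 54.3 FPKM in Adcy10-/- cells, but its ranges overlapped with cytokines.

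Ddit3, the gene for the stress factor CHOP, was at 7.80, 5.83 and 5.50 FPKM in WT and 10.1, 9.54 and 8.09 FPKM in Adcy10-/- cells (0.48, interval 0.22 to 0.74). With cytokines Ddit3 was higher in all libraries, at 10.4, 9.23 and 9.71 FPKM in WT and 13.8, 11.2 and 12.2 FPKM in Adcy10-/- cells (0.31). Of the other 21 tested members of the integrated stress list, 8 were above 0 and 13 below, with a median of -0.01, and none had ranges that separated the genotypes. No gene of these 21 had an unadjusted p under 0.05, and 1 did with the replicate block. In the RefSeq annotation Ddit3 overlaps Mars1 and Mbd6. Whether the authors counted by strand is not given in the sources used here, so reads shared with these genes are an uncertainty of its values.

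Il4i1, the gene for an amino acid oxidase that lymphoid and antigen-presenting cells release, was at 10.2, 5.95 and 8.45 FPKM in WT and 4.06, 4.82 and 5.38 FPKM in Adcy10-/- cells (-0.65, interval -1.13 to -0.18). With cytokines its difference was -0.79, and the ranges did not overlap in either medium. It overlaps Il4i1b and Tbc1d17. Mrps14, a mitochondrial ribosome gene on chromosome 1, was at 24.5, 24.0 and 23.6 FPKM in WT and 21.9, 19.8 and 18.8 FPKM in Adcy10-/- cells (-0.24), and differed by -0.41 with cytokines.

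Of the leading 10 genes by p, 4 separated the genotypes at baseline and not in the same direction with cytokines. Mvb12a, a subunit gene of the endosomal sorting complex ESCRT-I, differed by 0.20 at baseline and -0.01 with cytokines. Ttc32 differed by 0.26 and -0.06, and Zfpm1, whose product FOG1 binds GATA factors, by 0.26 and 0.08. Rpp25l, a gene related to a subunit of ribonuclease P, was at 29.5, 31.2 and 29.8 FPKM in WT and 36.5, 32.9 and 34.1 FPKM in Adcy10-/- cells, all 3 above WT (0.19). With cytokines Rpp25l was at 34.5, 38.2 and 33.6 FPKM in WT and 32.2, 31.2 and 31.9 FPKM in Adcy10-/- cells, all 3 below WT (-0.15).

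**Figure D4:**
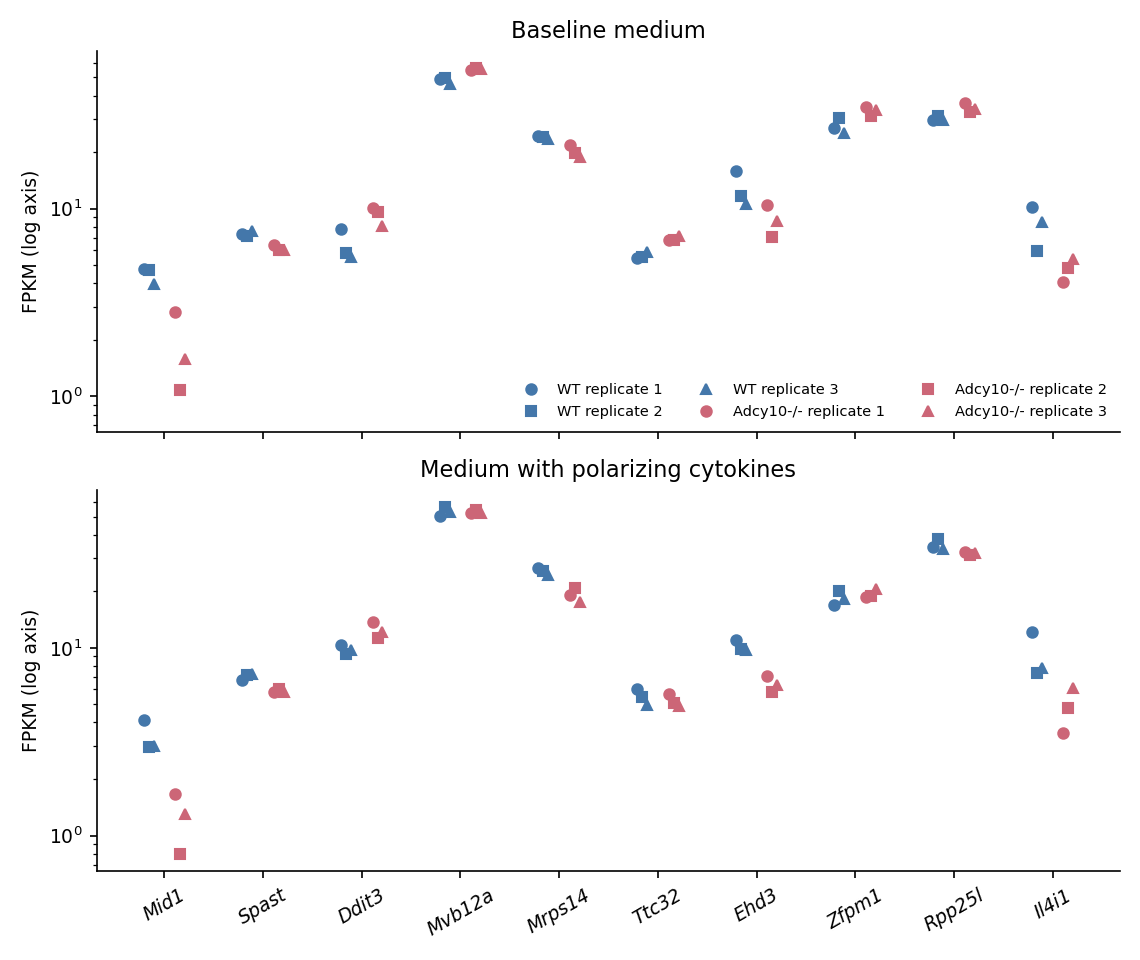
FPKM on a log axis of Mid1 and 9 of the 10 genes with the smallest p and a mean of at least 5 FPKM, in baseline medium (top) and with cytokines (bottom), blue for WT and red for Adcy10-/-, with a marker shape for each replicate number. For Rpp25l the Adcy10-/- libraries lie above WT in the top panel and below WT in the bottom panel.

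Over all genes the 2 media were set side by side. With cytokines limma called none of the same 9892 genes (0.0%), and 182 were under an unadjusted 0.05 (1.84%), or 490 with the replicate block (4.95%). The interaction, the genotype difference with cytokines minus that at baseline, also had no call, and 104 genes were under an unadjusted 0.05 (1.05%), or 324 with the replicate block (3.28%). Of the 108 genes under 0.05 at baseline, 66 had a difference of the same sign with cytokines, and 15 of them were also under 0.05 there. The genotypes separated in the same direction in both media for 27 genes (0.273%), 9 higher and 18 lower in Adcy10-/- cells, and in opposite directions for 17. The media shared no library, but the paired media libraries within a genotype (same replicate number) had residual correlations across genes of 0.385 to 0.623, so the media are not independent.

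Among these 27 were Cfb, Csf2rb, H2-DMb1 and Fcer1g, singled out after their values were seen. Cfb, complement factor B, was at 3.82, 1.502 and 2.34 FPKM in WT and 0.436, 0.828 and 1.19 FPKM in Adcy10-/- cells (-0.93, interval -1.58 to -0.29). Csf2rb, the shared chain of the GM-CSF, IL-3 and IL-5 receptors, was at 2.23, 2.14 and 2.48 FPKM in WT and 0.680, 1.41 and 1.53 FPKM in Adcy10-/- cells (-0.59). H2-DMb1, which helps load peptides on MHC class II, differed by -0.54 and Fcer1g, the signalling chain of Fc receptors, by -0.42.

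Marker levels of other cell types were measured beside them. Of 13 macrophage and monocyte markers in the files, 9 were under 1 FPKM in all 6 libraries. Their sum was 146, 93.7 and 88.6 FPKM in WT and 94.0, 95.6 and 81.9 FPKM in Adcy10-/- cells. Lyz2, the lysozyme gene of myeloid cells, was at 60.9, 15.7 and 20.5 FPKM in WT and 11.8, 16.3 and 13.8 FPKM in Adcy10-/- cells, the highest value being that of WT replicate 1. Its ranges overlapped at baseline but not with cytokines (WT 93.5, 24.5 and 36.8 FPKM, Adcy10-/- 17.8, 22.7 and 18.3 FPKM). Among the 9 low markers, Csf1r (WT 0.149 to 0.555 FPKM, Adcy10-/- 0.0808 to 0.0994 FPKM) and Cd14 were lower in all Adcy10-/- baseline libraries. C1qa was higher in all of them, and the ranges of Lyz1, Emr1, Itgam, Fcgr1, C1qb and C1qc overlapped. The sum of 10 dendritic cell markers was 126, 307 and 258 FPKM in WT and 76.8, 169 and 218 FPKM in Adcy10-/- cells, lower in Adcy10-/- cells at each number. Of these markers 6 were under 1 FPKM in all 6 libraries, with Cd209a and Clec9a at 0, so few genes carried the sum. This sum was lowest in replicate 1 of each genotype, as was that of the B cell markers. Ccl17 was instead highest in WT replicate 1, at 31.3, 8.40 and 19.6 FPKM in WT and 4.85, 8.20 and 10.0 FPKM in Adcy10-/- cells. The sum is thus no measure of dendritic cells alone.

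The sum of 15 B cell markers, which include MHC class II genes of other antigen-presenting cells, ran from 107 to 330 FPKM in WT and from 93.6 to 263 FPKM in Adcy10-/- cells. H2-Ab1, an MHC class II chain, was at 18.3, 35.2 and 33.6 FPKM in WT and 9.50, 23.8 and 30.2 FPKM in Adcy10-/- cells. Its difference was -0.52 (interval -1.65 to 0.60, or -0.82 to -0.23 with the replicate block), and it was not called. The sum of 9 neutrophil and mast cell markers was 11.97, 8.36 and 24.2 FPKM in WT and 5.22, 8.68 and 7.72 FPKM in Adcy10-/- cells, with Retnlg at 0 in all 6. Of these markers Cpa3 (WT 0.736 to 1.85 FPKM, Adcy10-/- 0.439 to 0.601 FPKM) and Ms4a2 (WT 0.305 to 0.780 FPKM, Adcy10-/- 0.205 to 0.281 FPKM) were lower in all Adcy10-/- libraries. Both were too low to test. The ranges of Kit, Cxcr2 and the 4 tested markers overlapped. The part of these cells in the values of Il4i1, Cfb, Csf2rb, H2-DMb1 and Fcer1g was not tested. Red cell genes stood apart in 1 library: 7 markers summed to 193 FPKM in Adcy10-/- replicate 3 and to between 0.976 and 18.7 FPKM in the other 5.

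Genes that flank Adcy10 on chromosome 1 were read in RefSeq gene order, with no test. Among the 40 tested genes on each side, 8 of 80 had ranges that separated the genotypes (10%, against 4.87% of all genes), 2 higher and 6 lower in Adcy10-/- cells, and 5 of 80 had an unadjusted p under 0.05 (6.25%, against 1.09%). With the replicate block this was 8 of 80 (10%, against 3.56%), a smaller ratio to all genes. For the 20 nearest on each side, 3 of 40 had separate ranges (7.5%). Under the unadjusted 0.05 were 2 of 40 (5%), with or without the block. For the 10 nearest on each side these were 3 of 20 (15%) and 2 of 20 (10%). Both of the nearest tested genes on one side had separate ranges. Mpc2, a subunit gene of the mitochondrial pyruvate carrier, was next to Adcy10 in this order, at 49.4, 50.2 and 45.3 FPKM in WT and 44.7, 41.2 and 41.2 FPKM in Adcy10-/- cells (-0.18, interval -0.32 to -0.05). With cytokines Mpc2 differed by -0.21 and its ranges again did not overlap. Dcaf6, a substrate receptor gene for a ubiquitin ligase, was at 4.36, 3.71 and 4.11 FPKM in WT and 3.70, 2.95 and 3.29 FPKM in Adcy10-/- cells (-0.23, interval -0.46 to -0.01), and its ranges overlapped with cytokines. The other lower genes were Tmco1 (-0.11), Fcer1g (-0.42), Mrps14 (-0.24) and Cenpl (-0.08), and Pigc (0.17) was among the higher. Mpc2, Fcer1g and Mrps14 also separated the genotypes with cytokines, in the same direction as at baseline.

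**Figure D5:**
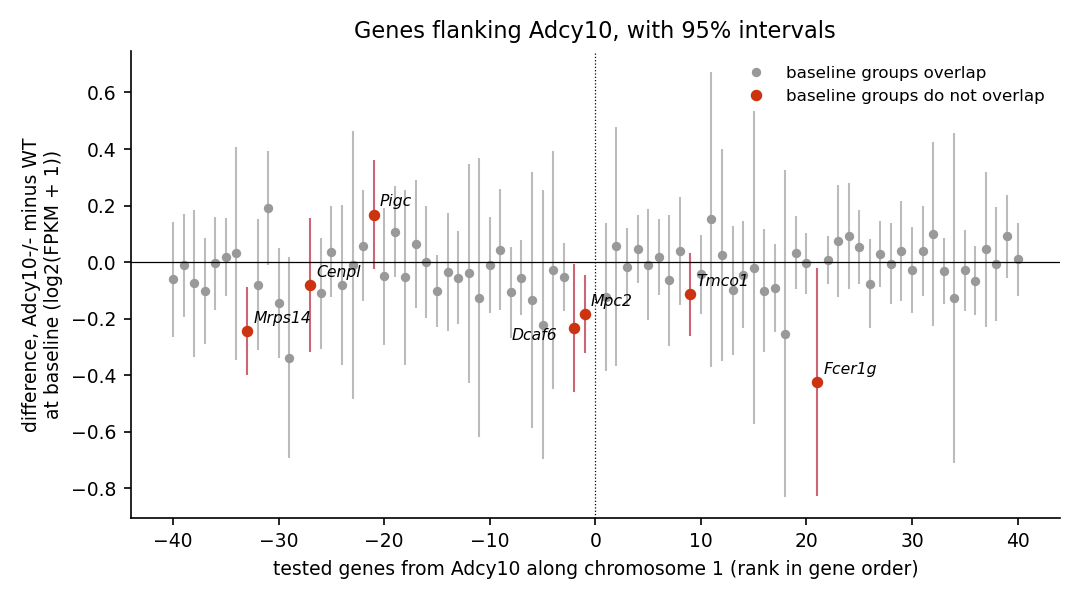
Difference between genotypes at baseline (log2(FPKM + 1)), with 95% intervals, for the 40 tested genes on each side of Adcy10 by rank in gene order on chromosome 1, with 1 gene not shown. Red marks 7 genes whose genotype ranges do not overlap, of which Mpc2 and Dcaf6 are the 2 nearest on one side.

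By whole chromosome, 12 of 543 tested genes on chromosome 1 (2.21%) and 13 of 535 on chromosome 17 (2.43%) had an unadjusted p under 0.05, against 1.09% of all genes. With the replicate block these were 23 (4.24%) and 30 (5.61%), against 3.56% of all genes, and 6 autosomes, chromosome 17 among them, had a higher share than chromosome 1. Lclat1, a lysocardiolipin acyltransferase gene on chromosome 17 named after its values were seen, was at 3.76, 3.60 and 3.49 FPKM in WT and 5.15, 4.09 and 4.38 FPKM in Adcy10-/- cells (0.26). Its ranges separated the genotypes in the same direction with cytokines (0.22).

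No gene of the metabolic lists was called. All 26 tested glycolysis genes and all 57 respiratory chain genes had intervals within 1.5-fold. The glycolysis genes had 21 differences below 0 and 5 above (median -0.04), and the hypoxia genes 15 below and 2 above (median -0.05). Tpi1, a glycolytic enzyme gene, was at 346, 337 and 479 FPKM in WT and 289, 404 and 361 FPKM in Adcy10-/- cells, with overlapping ranges. In the respiratory chain 6 genes had higher and 1 lower non-overlapping ranges (12.3% of 57, against 4.87% of all genes). Ndufb10, a complex I subunit gene, was at 130, 119 and 123 FPKM in WT and 134, 134 and 132 FPKM in Adcy10-/- cells (0.10). With cytokines the median of this list was -0.05, against 0.02 at baseline. Ebp, an enzyme gene of cholesterol synthesis, differed by 0.18 (interval 0.04 to 0.31), while 22 of the 29 genes of that list were below 0.

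Interferon-stimulated genes lay mostly above 0. Of 34 tested, 25 were above 0 and 9 below, with a median of 0.08 beside 0.00 for all genes, and none was called. In 6 of them (17.6%) the Adcy10-/- libraries all lay above the WT libraries, against 2.57% of all genes. Psmb9, an immunoproteasome subunit gene, was at 66.0, 66.1 and 67.4 FPKM in WT and 75.8, 71.7 and 71.5 FPKM in Adcy10-/- cells (0.13, interval 0.02 to 0.25). The other 5 were the peptide transporter gene Tap1 (0.10) and the interferon-inducible GTPase genes Iigp1 (0.19), Irgm2 (0.11), Igtp (0.12) and Tgtp1 (0.11), and all but Psmb9 had an interval that crossed 0. With the replicate block the intervals of Igtp (0.03 to 0.21) and Tap1 (0.0015 to 0.20) lay above 0, and those of Iigp1, Irgm2 and Tgtp1 crossed it. Some separations were narrow. The highest WT and lowest Adcy10-/- values were 215.9 and 216.2 FPKM for Igtp, and both were 102.5 FPKM for Tap1. With cytokines the ranges of all 6 genes overlapped, and the median of the list was 0.04. Iigp1, Irgm2, Igtp and Tgtp1 belong to related GTPase families, in which reads can be shared between copies.

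The male origin given in the labels was checked. Xist lay between 0.0200 and 0.0737 FPKM in the 6 libraries, and 4 of 4 Y-linked genes on the list passed the expression filter. Ddx3y was at 8.12, 9.09 and 9.60 FPKM in WT and 5.89, 7.69 and 7.75 FPKM in Adcy10-/- cells (-0.30), while Eif2s3y, Uty and Kdm5d had overlapping ranges. Cd4 was between 139 and 179 FPKM and Cd3e between 169 and 260 FPKM in the 6 libraries.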

How the data were processed

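Polyadenylated RNA of 12 libraries was measured, 3 per group. The deposited files hold the authors' FPKM values by gene name. For these, mm9, STAR 2.4.0f1, SAMtools 0.1.19, Cufflinks and HTSeq were used, per the submitters' processing notes. FPKM values keep no read counts, so depth is unknown. Totals of the 6 baseline libraries were 551022 to 574610 FPKM, with 9778 to 9894 genes at 1 FPKM or more. Each file held 24488 entries for 23991 names, and the 755 entries of 258 repeated names were summed.

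Values were taken as log2(FPKM + 1), which understates differences of low genes. Bounds of 1.5-fold and 2-fold on intervals are on this scale. Genes that reached 1 FPKM in 3 or more of the 6 baseline libraries were tested with limma 3.58.1 (R 4.3.3), as 4 group means over 12 libraries with a variance trend, two-sided, with Benjamini-Hochberg adjustment over all tested genes and a threshold of 0.05. Differences are Adcy10-/- minus WT. Intervals are from the fit without the replicate block unless the block is named. The steps were tested on simulated data in which libraries varied independently, so that test does not cover variation shared by a replicate number. Tables and figures used Python 3.11.15, pandas 2.3.3, numpy 2.4.6 and matplotlib 3.10.9.

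The genes named were Adcy10, a panel, the 10 smallest p-values with a mean of 5 FPKM or more (small RNAs, predicted genes and receptor segments left out) and the smallest p of each list; others named were chosen after their values were seen. Some genes that this rule names are not reported here. The comparison, the panel, the 40 lists and the tests were chosen with earlier results of these data known.

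Residuals of WT and Adcy10-/- baseline libraries of the same number correlated at 0.589, 0.112 and 0.509 over the tested genes. All were over 0.1, so the numbers were taken to pair the libraries, although the labels do not say what a number marks. Number 2 met this only narrowly, with 0.0736 when genes were filtered over all 12 libraries. Adcy10-/- replicate 2 also correlated more with WT replicate 3 (0.350) than with WT replicate 2. For lack of such a label the main fit has no block, so its intervals also hold spread shared by a number. Their median half-width was 0.19, against 0.14 with the block. Blocked counts stand beside counts over all genes, chromosomes and Adcy10 neighbors that they change by over 1.5 times. Gene order, overlaps and promoters came from RefSeq, GRCm38.p6, another build than the authors'. Of the tested genes 9863 matched (99.7%), and no coordinates of the files were used.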

Additional observations from a re-analysis of the deposited data

How the results depend on the processing

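Limma called no gene at baseline under any of the 25 alternatives: other pseudocounts, filters and scalings, no variance trend, the 6 baseline libraries alone, the largest entry of a repeated name, the replicate block, each library left out, and, added after the data were seen, replicate 1 of every group left out. With cytokines and for the interaction there was 1 call without WT cytokines replicate 1 (Mir703) and 1 without KO cytokines replicate 1 (Snora75). The range was 0 to 1 apart from the added alternative without replicate 1 of every group, which gave 2 and 1. The replicate block changed no call, and the smallest adjusted p at baseline ran from 0.170 (with that block) to 1.00 over these alternatives. The count at an unadjusted p under 0.05 (108) was 377 with no filter, 64 with a filter at 5 FPKM, 352 with the replicate block, 491 with the block on the 6 baseline libraries alone, 215 without replicate 1 of every group, and 91 to 234 with 1 library left out, the highest without WT baseline replicate 1. Depth is unknown, and 3 libraries per group limit the precision.

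Of 86 genes with a value in the text or by the naming rule, 64 kept the sign of their difference under every alternative run, and no alternative made 1 of them pass. Leaving out single libraries gave ranges that cross 0 for Il17a (-0.21 to 0.87), Il17f (-0.62 to 1.10), Il21 (-0.54 to 0.46), Il2 (-0.47 to 0.0543), Ifng (-0.43 to 0.71), Tbx21 (-0.33 to 0.52), Gata3 (-0.0746 to 0.0499), Eomes (-0.0455 to 0.27), Crem (-0.0492 to 0.0823), Nr4a1 (-0.11 to 0.0333), Pde4b (-0.0404 to 0.21), Pde4d (-0.087 to 0.0766), Ptger4 (-0.00736 to 0.16), Adcy7 (-0.0709 to 0.11), Prkar1a (-0.016 to 0.0405), Socs2 (-0.0149 to 0.37), Adcy3 (-0.13 to 0.0191), Tpi1 (-0.24 to 0.0264), Hbb-b2 (-0.58 to 1.53), Blk (-0.64 to 0.34) and Adcy6 (-0.11 to 0.0779). Without replicate 1 of every group Il21 (0.00383), Tbx21 (-0.00263), Gata3 (0.0212), Crem (0.043), Pde4d (0.0617), Car2 (0.00196) and Adcy6 (0.12) also changed sign, as did Crem with median-ratio scaling (0.0027) and quantile normalization (0.0024), Prkar1a with quantile normalization (-0.00024) and Blk with a pseudocount of 0.1 (0.14). The cause was not tested.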
